A study of Mus musculus with 14 samples.

Results

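The genes described here are the 7 granzymes that lie side by side at the Gzmb locus on mouse chromosome 14, namely Gzmb, Gzmc, Gzmd, Gzme, Gzmf, Gzmg and Gzmn. They were taken by gene symbol, as 7 of the 55291 symbols of each deposited table, and all 7 were listed in both tables. They were picked because their transcripts were already known to be lower in the ND-646 libraries, so their values in that comparison are a description and carry no test. The values are estimated RNA sequencing counts from 14 mouse libraries of 2 experiments, which the study set up around acetyl-CoA carboxylase, the enzyme that makes malonyl-CoA for fatty acid synthesis. In the first experiment, whole splenocytes of OT-1 mice (genotype given as WT), whose CD8+ T cells carry a transgenic receptor for an ovalbumin peptide, were cultured with 1 µg/mL of that peptide and 200 U/mL recombinant human interleukin-2. They were activated for 3 days and expanded for 4 days, 7 days in all, with 100 nM of the acetyl-CoA carboxylase inhibitor ND-646 (n = 4) or with DMSO vehicle (n = 4). In the second, CD8+ T cells were pre-enriched and sorted by flow cytometry from spleens (n = 3) and from MCA205 fibrosarcomas (n = 3) of C57BL/6 mice, 14 days after the tumour cells were placed under the skin of the right flank. The tumour samples are labelled as pooled, without a statement of what was pooled. No label says that the replicates of any group were separate mice or cultures, so each p-value reflects only how much these libraries vary, and that variation may be technical.

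Granzymes are serine proteases kept in the granules of cytotoxic lymphocytes and passed into a target cell with the help of perforin, which makes pores. Granzyme B cuts after aspartate and starts caspase-dependent death, while the neighbouring genes from Gzmc to Gzmg are close rodent paralogs that are known to appear late in strongly activated T cells and in uterine natural killer cells, with targets that are less well known. Gzmn is known mainly from the testis. T-bet (Tbx21), Eomes, Blimp-1 (Prdm1), Runx3 and the interleukin-2 receptor are known regulators of cytotoxic genes in CD8+ T cells.

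In RefSeq order the run reads Gzme, Gzmd, Gzmg, Gzmn, Gzmf, Gzmc and Gzmb, all on the minus strand, with the neutrophil protease gene Ctsg and then the basophil protease gene Mcpt8 next to Gzme. The promoters of 5 members are printed because the results below turn on how these members differed across the groups. Each is written 5′ to 3′ on the strand of the gene, from 250 to 21 bases before its RefSeq start (build GRCm38.p6, minus strand), and capitals mark matches to 3 motifs. The windows are chr14:56262355-56262584 for Gzmb, chr14:56234678-56234907 for Gzmc, chr14:56132614-56132843 for Gzmd, chr14:56211428-56211657 for Gzmf and chr14:56159600-56159829 for Gzmg.
Gzmb: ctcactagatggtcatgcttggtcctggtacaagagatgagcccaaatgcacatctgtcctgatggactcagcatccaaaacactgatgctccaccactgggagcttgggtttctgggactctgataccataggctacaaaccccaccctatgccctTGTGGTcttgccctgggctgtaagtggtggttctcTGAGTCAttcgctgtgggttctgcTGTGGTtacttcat
Gzmc: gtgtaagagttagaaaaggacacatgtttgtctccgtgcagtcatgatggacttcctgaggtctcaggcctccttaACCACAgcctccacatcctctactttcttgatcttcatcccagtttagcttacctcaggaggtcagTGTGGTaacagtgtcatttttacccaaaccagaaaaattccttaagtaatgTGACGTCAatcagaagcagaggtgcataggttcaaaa
Gzmd: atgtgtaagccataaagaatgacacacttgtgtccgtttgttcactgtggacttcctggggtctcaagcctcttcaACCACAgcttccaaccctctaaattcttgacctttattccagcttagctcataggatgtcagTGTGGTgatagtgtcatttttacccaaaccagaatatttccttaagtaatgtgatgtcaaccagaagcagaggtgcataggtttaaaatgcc
Gzmf: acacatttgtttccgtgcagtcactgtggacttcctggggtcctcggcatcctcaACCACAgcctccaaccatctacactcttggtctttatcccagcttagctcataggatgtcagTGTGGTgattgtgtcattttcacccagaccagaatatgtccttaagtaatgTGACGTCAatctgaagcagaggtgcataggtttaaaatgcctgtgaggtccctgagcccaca
Gzmg: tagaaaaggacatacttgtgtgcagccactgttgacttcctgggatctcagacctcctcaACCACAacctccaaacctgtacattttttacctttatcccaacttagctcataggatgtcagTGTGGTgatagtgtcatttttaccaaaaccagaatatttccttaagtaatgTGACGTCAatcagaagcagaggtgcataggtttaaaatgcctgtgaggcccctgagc

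The Gzmb window held the motif of AP-1 (TGANTCA, both strands) 58 bases before the start, and none of the other 6 windows did, while 6.34% of all 32851 RefSeq promoter windows of the same length held it. The full cyclic AMP response element, TGACGTCA, was found in the windows of Gzmc, Gzmf and Gzmg, and in 1.28% of all windows. The RUNX core, TGTGGT or ACCACA, occurred 2 times in each member window except that of Gzmn, where it was not found. A window with any match to it made up 13.2% of all windows. The windows of Gzmc to Gzmg are much alike, as given below, so their matches are not independent. A T-box site (AGGTGTG or CACACCT, 4.77% of all windows) and a STAT site (TTCNNNGAA, 6.48%) were found in none of the 7. No motif overlapped another, the motifs were chosen with these sequences in view, and a match describes letters only.

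The promoter windows of Gzmc and Gzmd were 83.5% identical where they aligned, those of Gzmf and Gzmg 87.8%, and those of Gzmd and Gzme 95.6%. The windows of Gzmb and Gzmn were less like the others: the highest identity to another member was 62.0% for Gzmb (with Gzmf, over 150 aligned bases) and 57.1% for Gzmn (with Gzme, over 191 aligned bases). In coding sequence, Gzmd and Gzme were 94.8% identical, Gzmf and Gzmg 87.1%, and Gzmb and Gzmc 76.6%. Because of this likeness, 57.9% of the 31-base stretches of the Gzme transcript were found in no other gene of GENCODE M21, against 61.8% for Gzmd, 66.2% for Gzmg, 77.2% for Gzmf, 85.2% for Gzmc, 85.5% for Gzmn and 98.6% for Gzmb. No stretch of 150 bases, the length of 1 read, was shared between a member and another gene, and each member's estimate was a whole number in all 14 libraries. The division of reads among these paralogs was still made by the authors' counting, so values for Gzmd and Gzme are the least certain.

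Library totals (M, 1e+06 counts) were 23.5 to 29.0 M in vehicle and 27.9 to 33.8 M in ND-646 libraries, 19.8 to 20.8 M in spleen libraries, and 20.3 ± 0.724 M (SD, n = 3) in tumour libraries. A count of 0 in 1 library allows up to 3 counts, which is 0.0878 to 0.129 CPM (counts per 1e+06, scaled by TMM) in the cultures and 0.143 to 0.154 CPM in the sorted cells; such limits cover counting error only. All 14 markers of CD8+ T cell identity were detected in both experiments, with summed levels of 5778 to 6148 CPM in vehicle, 5332 to 5437 in ND-646, 8853 to 8924 in spleen and 4092 to 5499 in tumour libraries. In bulk RNA, fewer cells of a type and less RNA per cell cannot be told apart.

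Gzmb was the most abundant of the run in every library, also per length of transcript, and ND-646 cultures held less of it than vehicle cultures. Its level was 3678, 3995, 3439 and 3496 CPM in the 4 vehicle libraries and 2079.8, 1979, 2026 and 1986 CPM in the 4 ND-646 libraries. Every ND-646 library was below every vehicle library, with means of 3652 ± 250.5 and 2018 ± 46.2 CPM (SD, n = 4 each), and the fitted difference was -0.86 ± 0.05 on the log2 scale (SE), or 1.81-fold lower.

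The other members were lower by a much larger factor. Gzmc, whose product can kill without caspases, stood at 979.9, 1051, 905 and 943 CPM with vehicle and at 47.3, 48.4, 45.2 and 46.6 CPM with ND-646. The groups were far apart and each was tight, and Gzmc was 20.7-fold lower (log2 difference -4.37 ± 0.05). Gzmd had 248, 252, 242 and 249.5 CPM with vehicle against 6.01, 7.20, 5.75 and 5.59 CPM with ND-646, which was 40.4-fold lower (-5.33 ± 0.06). Gzme, its nearest paralog, had 86.8, 88.3, 89.3 and 85.7 CPM against 1.62, 2.40, 1.66 and 1.77 CPM, 47.0-fold lower (-5.54 ± 0.08). ND-646 library 2 was the highest of its group for both of these near-identical genes, and for Gzmc.

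Gzmf had 81.5, 87.6, 83.0 and 81.7 CPM in the vehicle libraries and 2.04, 1.70, 1.62 and 2.02 CPM in the ND-646 libraries, a 45.3-fold lower level (-5.50 ± 0.07). Gzmg was at 245, 251, 246 and 252 CPM with vehicle and at 3.88, 4.77, 4.09 and 3.79 CPM with ND-646, 60.1-fold lower (-5.90 ± 0.06), the largest fitted difference among the members. Gzmn was close to the detection limit: it had 12, 11, 5 and 12 counts in the vehicle libraries, 0.401 ± 0.136 CPM (SD, n = 4), and no count in any ND-646 library. Against the 3 counts that a group at 0 allows (0.0246 CPM), Gzmn was at least 16.3-fold lower with ND-646; it did not pass the low-count filter.

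All 7 members thus had ND-646 values below every vehicle value. Among the 14251 genes tested in this comparison, 24.1% had all ND-646 libraries below all vehicle libraries, 26.5% were called lower by edgeR's quasi-likelihood test, and 0.133% (19 genes) had a fitted level at least 16-fold lower, 5 of them members. These shares are given as background only, since the members were picked on this comparison.

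**Figure D1:**
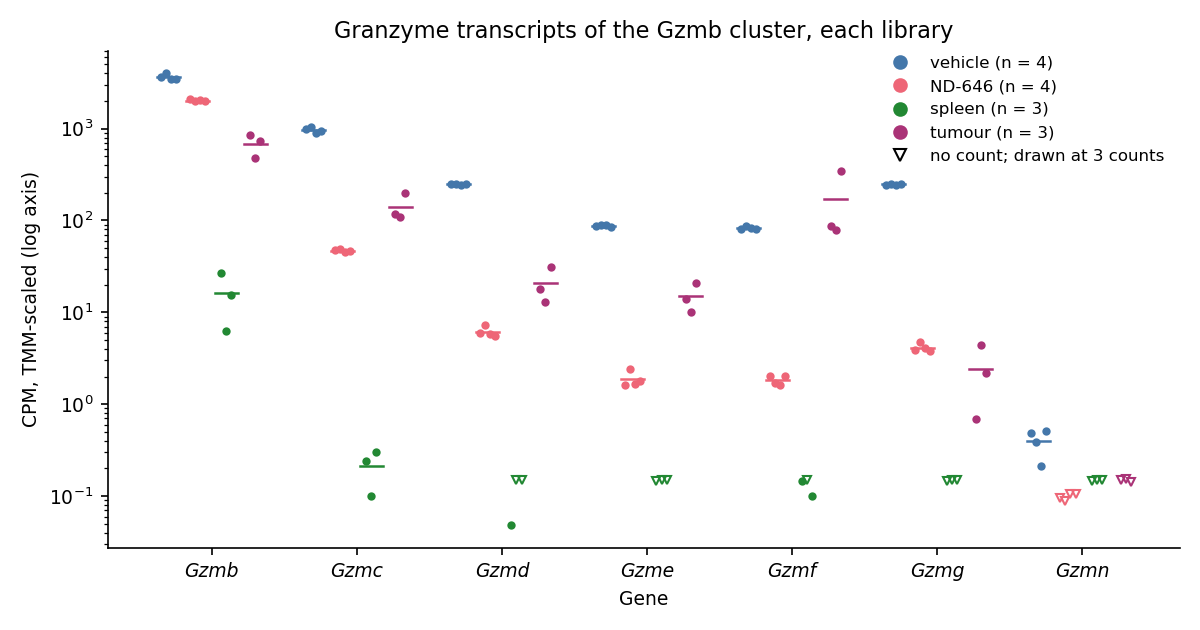
Level of each granzyme in each library (CPM scaled within each experiment, log axis); points are libraries, short bars are means of groups with a count in every library, and open triangles mark libraries with no count, drawn at their limit of 3 counts, so that a library with 1 or 2 counts can lie below them. Gzmb is the highest member in every group, every ND-646 point lies below every vehicle point, and the 3 tumour points of Gzmf (78.8 to 344 CPM) lie around and above its vehicle points (81.5 to 87.6 CPM).

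In the sorted cells, spleen libraries held almost none of the run apart from Gzmb, and tumour libraries held all members except Gzmn. Gzmb was at 26.5, 6.29 and 15.5 CPM in the 3 spleen libraries and at 849, 474 and 739 CPM in the 3 tumour libraries. The groups did not overlap, and Gzmb rose by 5.41 ± 0.56 on the log2 scale (42.7-fold; edgeR adjusted p = 0.000289, higher in 3 of 3 tumour libraries). Spleen libraries differed among themselves by several fold, and without spleen library 1 the log2 difference was 6.01.

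Gzmc had 5, 2 and 6 counts in the spleen libraries, or 0.241, 0.0999 and 0.299 CPM, against 117, 109 and 198 CPM in the tumour libraries. That was a log2 difference of 9.33 ± 0.49, a 662-fold higher level that rests on 13 spleen counts. Gzmd had 1 count in spleen library 1 and none in the others, against 17.9, 13.0 and 31.5 CPM in tumours. Its ratio of summed levels was 1279.8, with a 95% Poisson interval of 229.7 to 50548. Gzme had no spleen count and 13.9, 10.2 and 20.7 CPM in tumours, at least 305-fold higher than the 3 counts allowed over the spleen group. For Gzmc, Gzmd and Gzme alike, tumour library 3 was the highest and library 2 the lowest.

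Gzmf differed widely among the tumour libraries. It had 3, 0 and 2 counts in the spleen libraries and 87.8, 78.8 and 344 CPM in the tumour libraries, of which library 3 stood well above the others. The log2 difference was 10.91 ± 1.51, a 2091-fold ratio of means on 5 spleen counts, and it was 9.91 without tumour library 3 and 11.60 without spleen library 1. Gzmg, the nearest relative of Gzme after Gzmd, had no spleen count and 0.692, 4.36 and 2.20 CPM in tumours, at least 48.5-fold higher than the spleen limit. Tumour library 1, with 14 Gzmg counts, was the lowest, and library 2 the highest. Gzmn had no count in any of the 6 libraries, which allows up to 0.0493 CPM over the spleen group and 0.0495 CPM over the tumour group.

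Of the 7 members, 6 passed the low-count filter in the sorted cells and all 6 were called higher in tumours, where 43.6% of the 15042 genes tested were called higher and 44.6% had all tumour libraries above all spleen libraries. Gzmc, Gzmd, Gzme, Gzmf and Gzmg passed that filter through the tumour libraries alone and so had to differ, and no test is given for them; Gzmb did not depend on the filter. Scaling by the CD8 identity genes in place of TMM raised the median log2 difference of all genes by 0.90 in tumours, and put Gzmb at 6.28, Gzmc at 10.21 and Gzmf at 11.77. Scaling the cultures in that way moved the median of all genes by 0.15. Per 1000 counts of the CD8 identity genes, the 7 members summed to 1.85 ± 1.16 counts in spleen and 214 ± 54.8 in tumour libraries (SD, n = 3 each), against 890.1 ± 30.1 with vehicle and 388 ± 5.05 with ND-646 (SD, n = 4 each).

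**Figure D2:**
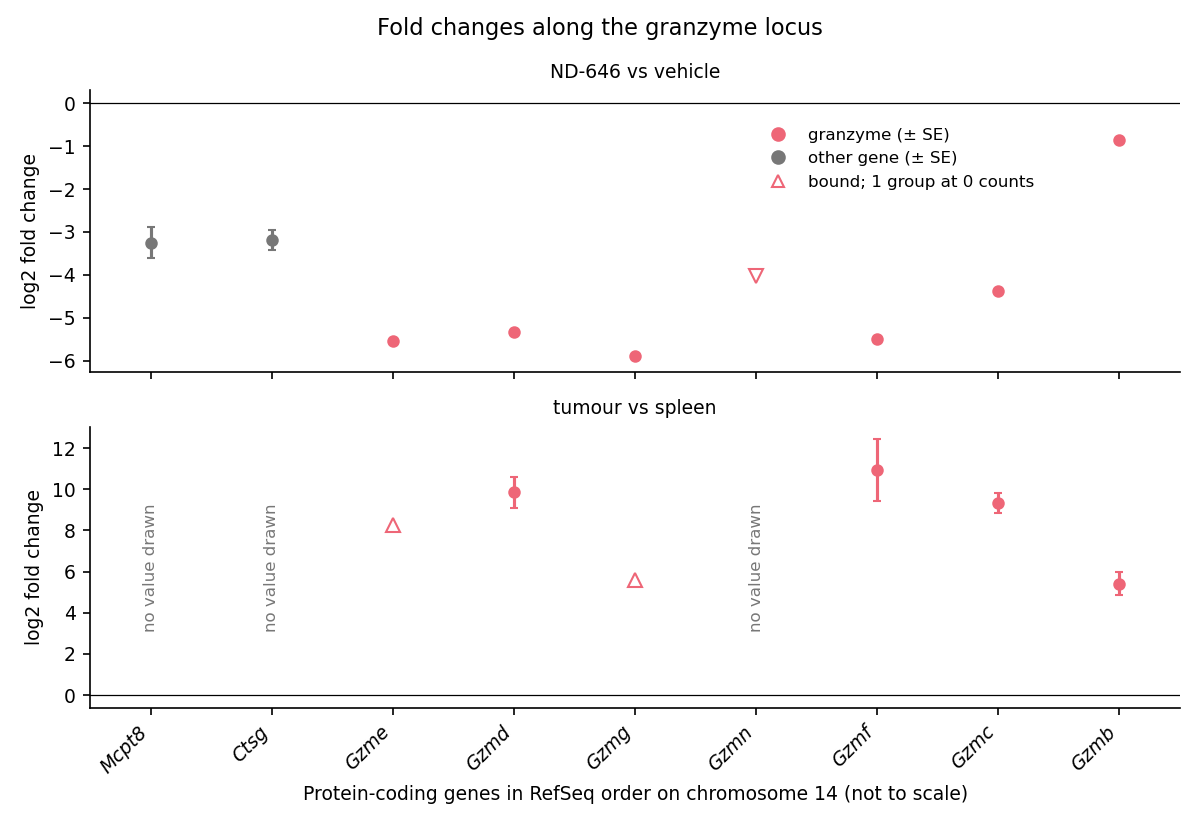
Fitted log2 fold changes (± SE, within the marker where no bar shows) of the granzymes and of the neighbouring genes Mcpt8 and Ctsg, in RefSeq order along the chromosome with equal spacing, for ND-646 against vehicle (top) and tumour against spleen (bottom). Gzmb has the smallest ND-646 difference of the run (-0.86) and Gzmg the largest (-5.90), Mcpt8 and Ctsg lie below 0 in the upper plot, triangles are bounds for granzymes with a group at 0 counts, and no value is drawn for a gene that was not tested or, outside the run, had no spleen count.

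Set in order over the 4 groups, the members did not follow a single pattern. The 2 experiments are separate tables, so these orders are across tables; they were the same when all 14 libraries were scaled together. Gzmb ran from vehicle through ND-646 and tumour to spleen, with no overlap between neighbours. Gzmc, Gzmd and Gzme ran from vehicle through tumour and ND-646 to spleen, again with no overlap. For Gzmf, tumour (78.8 to 344 CPM) and vehicle (81.5 to 87.6 CPM) overlapped, and both lay above ND-646 and spleen. That overlap depended on the scale. Per 1000 counts of the CD8 identity genes, Gzmf was at 16.0 to 70.8 in tumour and 13.7 to 14.4 in vehicle libraries, without overlap. For Gzmg, vehicle stood alone at the top, while ND-646 (3.79 to 4.77 CPM) and tumour (0.692 to 4.36 CPM) overlapped and spleen was at 0. Gzmn was detected with vehicle only.

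Levels of different genes are comparable only per length of transcript. Per kb, vehicle libraries held 2395 to 2782 CPM of Gzmb, 1012 to 1176 of Gzmc, 269 to 278 of Gzmg, 251 to 262 of Gzmd, 93.6 to 97.5 of Gzme and 88.7 to 95.3 of Gzmf. Gzmf was the lowest of the 6 well-detected members in each vehicle library, although its range overlapped that of Gzme. In tumours, Gzmf at 85.8 to 375 CPM per kb was above Gzmd (13.5 to 32.7), Gzme (11.1 to 22.6) and Gzmg (0.761 to 4.80) in every library, and in library 3 it also passed Gzmc, which was at 221 CPM per kb there.

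The makeup of the summed counts shifted in step. Gzmb took 69.1%, 69.8%, 68.7% and 68.4% of the granzyme counts in the vehicle libraries and 97.2%, 96.8%, 97.2% and 97.1% in the ND-646 libraries. It took 98.4%, 98.4% and 97.5% in spleen, but 78.2%, 68.7% and 55.3% in tumours. Vehicle cultures and tumours thus shared a broad makeup and ND-646 cultures and spleen one that was nearly all Gzmb, at very different totals: the 7 genes made up 0.496 to 0.563% of all counts with vehicle, 0.207 to 0.215% with ND-646, 0.000645 to 0.00269% in spleen and 0.0687 to 0.133% in tumours.

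**Figure D3:**
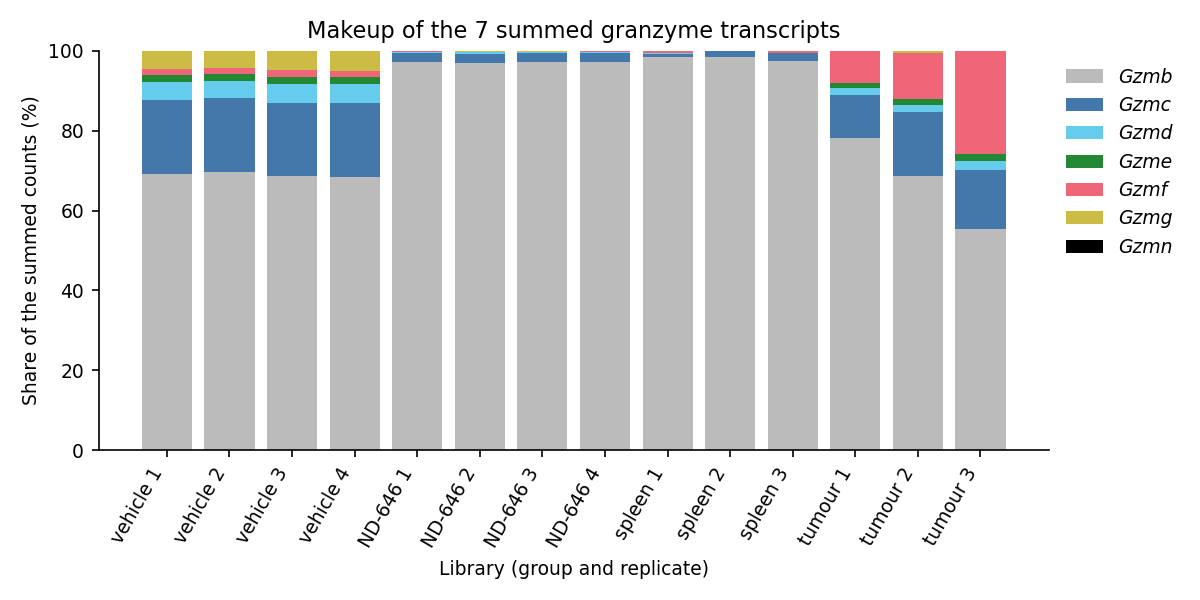
Share of each granzyme in the summed counts of the 7 genes (%), 1 stacked bar per library, not corrected for transcript length. Gzmb fills 96.8 to 98.4% of the ND-646 and spleen bars, and the Gzmf segment grows from 1.53 to 1.66% in vehicle to 8.09 to 25.8% in tumour bars while Gzmg shrinks from 4.39 to 4.94% to 0.0637 to 0.632%.

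Ratios within a library need no scaling and show which members kept step. Gzmd stood to Gzmc at 0.256 ± 0.0124 counts with vehicle, 0.131 ± 0.0125 with ND-646 (SD, n = 4 each) and 0.144 ± 0.0217 in tumours (SD, n = 3). Gzme to Gzmc was 0.0905 ± 0.00615 with vehicle, 0.0396 ± 0.00682 with ND-646 and 0.106 ± 0.0128 in tumours, so in tumours Gzme kept a ratio near that of vehicle cultures. Gzmf to Gzmc was 0.0862 ± 0.00401 with vehicle and 0.0393 ± 0.00445 with ND-646, but 0.721 to 1.74 in tumours. Gzmg to Gzmc was 0.257 ± 0.0154 with vehicle, 0.0881 ± 0.00814 with ND-646 and only 0.00593 to 0.0399 in tumours.

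The pair Gzmf and Gzmg, 87.1% identical in coding sequence and 87.8% in their promoter windows, showed this most clearly. There were 0.336 ± 0.0103 Gzmf counts per Gzmg count with vehicle and 0.452 ± 0.0896 with ND-646 (SD, n = 4 each). The ND-646 values lay in pairs, at 0.525 and 0.533 in libraries 1 and 4 and at 0.356 and 0.397 in libraries 2 and 3. Over the tested genes, too, these pairs were nearer each other than across. The 4 ND-646 libraries may thus not be equally independent. In tumours Gzmf outnumbered Gzmg by 18.1 to 157 counts per count, with 1777 against 14 counts in library 1, 1536 against 85 in library 2 and 7203 against 46 in library 3. Gzmd and Gzmg, at almost equal counts with vehicle (0.998 ± 0.0137), stood at 1.49 ± 0.061 with ND-646 and at 2.99 to 25.9 in tumours. Gzmd to Gzme moved from 2.83 ± 0.0867 with vehicle to 3.33 ± 0.315 with ND-646 and 1.36 ± 0.14 in tumours. These ratios are descriptions; cultures and tumours come from separate experiments and were not tested against each other.

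**Figure D4:**
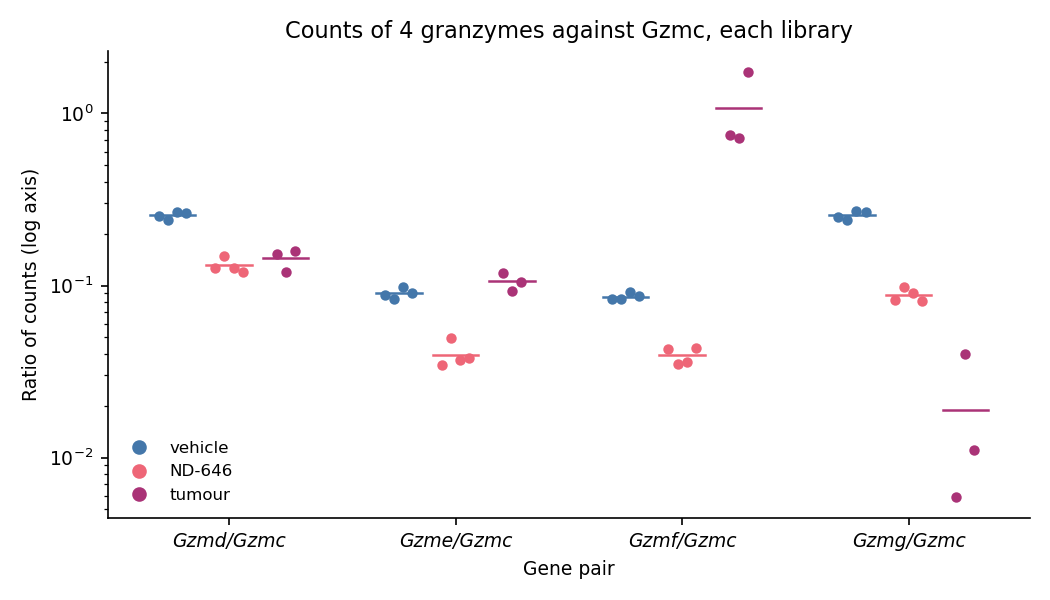
Counts of Gzmd, Gzme, Gzmf and Gzmg divided by those of Gzmc in the same library (log axis); points are libraries, bars are group means, and spleen is left out for want of counts. All 4 ratios are lower with ND-646 than with vehicle, while in tumours the Gzmf ratio is at 0.721 or above and the Gzmg ratio at 0.0399 or below.

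Other granule genes did not all follow the clustered run. Of all genes tested, 29.8% rose and 26.5% fell with ND-646, and 43.6% rose and 40.2% fell in tumours. Beside the list counts from TMM, those from scaling by the CD8 identity genes are given where they differ, or the genes whose call changed are named. With ND-646, granzyme A (Gzma), encoded elsewhere, fell from 442 ± 14.6 to 101 ± 8.15 CPM (log2 change -2.13 ± 0.05, edgeR adjusted p = 1.92e-15), and perforin (Prf1) fell by 2.56 ± 0.14 on the log2 scale (adjusted p = 4.28e-06). Both changes lay between that of Gzmb and those of Gzmc to Gzmg. Of 12 granule genes tested, 2 rose and 7 fell (median -0.27, against 0.01 for all genes), or 4 and 5 with CD8 identity scaling, and the granule proteoglycan Srgn was at -0.06 (adjusted p = 0.175). The fall extended to Nkg7 (-0.79 ± 0.04, adjusted p = 3.99e-11) and to Rab27a, which docks granules (-0.50 ± 0.04, adjusted p = 3.22e-09).
In tumours, where the clustered granzymes rose, 6 of 13 granule genes rose and 4 fell (median 0.60, against 0.03 for all genes), or 9 and 2 with CD8 identity scaling. Gzma was at 1.71 ± 0.66 (adjusted p = 0.0564) and Prf1 at 0.60 ± 0.25 (adjusted p = 0.0599), neither past the threshold. Gzma passed it without spleen library 1 (adjusted p = 0.0336) or tumour library 3 (0.0483), and Prf1 without tumour library 2 (0.00022). Both passed it with CD8 identity scaling, Gzma at 2.54 (adjusted p = 0.0172) and Prf1 at 1.47 (adjusted p = 3.86e-06), and by DESeq2 (adjusted p = 0.0184 and 0.0226). Gzmk rose by 2.68 ± 0.56 (adjusted p = 0.00393) and Gzmm fell by 2.18 ± 0.14 (adjusted p = 4.19e-07). Stx11, Fasl and Lamp1 had the smallest p-values of that list, at 4.04 ± 0.09, 5.81 ± 0.24 and 1.17 ± 0.06 on the log2 scale.

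Of 11 genes that process or restrain granzymes, 3 rose and 4 fell with ND-646 (median -0.06), or 3 and 3 with CD8 identity scaling (median 0.09). Cathepsin C (Ctsc), which activates progranzymes, fell by 0.37 ± 0.04 (adjusted p = 3.52e-07), and the granzyme B inhibitor Serpinb9 fell by 0.15 ± 0.05 (adjusted p = 0.0113, but 0.929 with CD8 identity scaling). Serpinb9b fell by 2.09 ± 0.17 and Ctsl rose by 0.81 ± 0.09. In tumours 9 of 11 rose and none fell (median 3.32; 11 rose with CD8 identity scaling), with Serpinb9 at 3.72 ± 0.14 (adjusted p = 5.69e-08), while Ctsc was at -0.07 ± 0.08 (adjusted p = 0.416) and turned to 0.81 under CD8 identity scaling.

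The regulators were tested beside the run. With ND-646, Tbx21 fell from 65.5 to 41.9 CPM (-0.65 ± 0.05, adjusted p = 1.18e-08), Eomes from 23.8 to 8.96 CPM (-1.41 ± 0.08, adjusted p = 4.93e-11), Prdm1 from 24.0 to 13.7 CPM (-0.81 ± 0.07, adjusted p = 1.45e-08) and Runx3 from 275 to 220.1 CPM (-0.32 ± 0.04, adjusted p = 2.57e-06). Each of these was a smaller change than that of any member from Gzmc to Gzmg. Of 19 factors of the cytotoxic programme, 5 rose and 9 fell (median -0.10), a split that became 9 and 6 with CD8 identity scaling (median 0.05). Id2 had the smallest p-value of the list (-0.95 ± 0.04), and Hif1a rose (0.63 ± 0.04). Of 8 naive and memory factors, 5 rose and 3 fell (median 0.22). Tcf7 (0.90 ± 0.12, adjusted p = 0.000223), Bach2 (0.21 ± 0.05, adjusted p = 0.00269) and Satb1 (0.47 ± 0.04) were among those that rose. Foxo1 (-0.33 ± 0.05, edgeR adjusted p = 1.21e-05), Myb (-0.54 ± 0.07, adjusted p = 2.83e-05) and Klf2 (-0.63, adjusted p = 0.0221) fell. Klf2 was not called with CD8 identity scaling (edgeR adjusted p = 0.0632) or with the replicate number as a block (0.131). Nor was it called without vehicle library 4 (0.0501), ND-646 library 3 (0.0711) or ND-646 library 4 (0.0510).
In tumours 12 of the 19 cytotoxic factors rose and 5 fell (median 2.06), or 16 and 1 with CD8 identity scaling. None of the 8 naive and memory factors rose while 8 fell (median -1.56), with 1 rising and 6 falling under CD8 identity scaling. The tumour libraries also held RNA of other cells, given below, and its part in these counts was not tested. Tbx21 rose by 2.06 ± 0.12 (adjusted p = 4.46e-07) and Prdm1 by 2.77 ± 0.18 (adjusted p = 5.46e-07), while Eomes fell by 1.52 ± 0.12 (adjusted p = 3.85e-06). Runx3 was at -0.21 ± 0.09 (adjusted p = 0.0571) and at 0.67 under CD8 identity scaling. Tcf7 fell by 3.36 ± 0.07 and Bach2 by 1.81 ± 0.08.

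Among 14 receptors and targets of interleukin-2 and interleukin-12, 6 rose and 3 fell with ND-646 (median 0.06), or 10 and 3 under CD8 identity scaling, and in tumours 8 rose and 4 fell (median 0.83), or 11 and 2. The receptor chains Il2ra and Il2rb fell with ND-646, by 0.79 ± 0.04 (adjusted p = 3.19e-12) and 0.58 ± 0.04 (adjusted p = 1.14e-09), close in size to Gzmb. Cish, a target of the receptor's signal, rose by 0.43 ± 0.07 (adjusted p = 0.000158). In tumours Il2ra rose by 4.98 ± 0.19, Il2rb by 1.60 ± 0.09 and Cish by 4.25 ± 0.08 (adjusted p = 5.37e-08, 2.22e-07 and 8.68e-10).

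The protease genes beside the granzymes were mostly at 0 in the cultures. Of 13 other listed genes of the locus, Mcpt1, Mcpt2, Mcpt4, Mcpt9 and Cma2 had no count in any culture library, and of the 6 that could be tested 2 rose and 3 fell. Ctsg, next to Gzme, fell from 3.02 to 0.321 CPM with ND-646 (-3.19 ± 0.24, adjusted p = 3.46e-09), and Mcpt8 from 0.895 to 0.0899 CPM (-3.25 ± 0.36, adjusted p = 4.82e-07), on 298 against 40 and 89 against 11 counts. Khnyn, farther out, rose by 0.26 ± 0.04 (adjusted p = 9.21e-06), and Cbln3 fell by 0.72 ± 0.18 (adjusted p = 0.00224); the use of strand in counting is not stated, so overlapping genes are uncertain. In the tumour comparison 4 of 6 tested locus genes rose and 2 fell, or 4 and none under CD8 identity scaling. Ctsg and Mcpt8 were not among those tested, with 0 spleen counts each and 2 and 7 tumour counts, while Mcpt2 had 0 and 133 counts and Cma1 1 and 114 counts. Cma1, tested on those counts, passed the low-count filter through the tumour libraries alone and so had to differ. Nfatc4 and Nynrin, also among the 4 that rose, were at 12.26 ± 0.40 and 2.48 ± 0.26 on the log2 scale. The count of locus genes that rose in tumours is a description only. Stxbp6, put beside these genes at first, lies on another chromosome and was left out of these counts; it rose by 3.10 ± 0.32 with ND-646 on 13 against 141 counts.

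Markers of other cells that can make granzymes or mast cell proteases also moved with the groups. In the cultures, 3 of 5 tested natural killer and innate lymphoid markers fell with ND-646 and 1 rose, and the list of 8 summed to 30.8 to 34.3 CPM with vehicle and 13.8 to 18.6 with ND-646. The defining receptor Ncr1 had 35 counts over the vehicle and 21 over the ND-646 libraries, too few to test. Mast cell and basophil markers summed to 3.53 to 4.95 and 2.11 to 2.93 CPM (2 of 3 tested fell, Tpsab1 and Mcpt4 were at 0, and 3 of the 12 are also locus genes). Myeloid markers summed to 239 to 254 and 54.5 to 66.4 CPM (3 of 4 fell), of which Spp1 alone made 229 ± 5.96 and 54.1 ± 6.14 CPM (SD, n = 4 each). Only 2 of the 5 listed gamma delta T cell markers were among the gene symbols. Of these, Trdc rose and Sox13 fell (together 142 to 152 CPM with vehicle and 162 to 172 with ND-646). Of plasmacytoid dendritic cell markers 1 of 3 rose with Siglech at 0 (19.6 to 21.4 and 37.7 to 41.6 CPM). With CD8 identity scaling Tcf4, another of these markers, was also called higher (0.25, edgeR adjusted p = 0.00187). Of B cell markers 1 of 6 rose and 5 fell, although their sum was higher with ND-646 (114 to 130.1 and 148 to 173 CPM). The riser was Ighm (0.50 ± 0.05), and Igkc (-5.78 ± 0.58) and Cd79b (-1.56 ± 0.24) were among those that fell. Of fibroblast markers 2 of 4 fell (5.18 to 6.62 and 3.66 to 4.58 CPM). Of the 14 CD8 identity markers, 4 rose and 7 fell, or 6 and 5 when scaled by themselves. Gzmc to Gzmg and Gzmn together summed to 1565 to 1731 CPM with vehicle and 58.4 to 64.4 CPM with ND-646. The part of these cells in the granzyme levels was not tested.

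The sorted tumour libraries held RNA of other cells. Fibroblast and fibrosarcoma markers were higher in 11 of 11 cases tested, summing to 10531 to 15275 CPM against 1.70 to 16.4 CPM in spleen. All 7 tested natural killer markers were higher, at 66.7 to 103 against 6.49 to 9.03 CPM for the list, with Ncr1 at 0.873 against 0.082 CPM. Mast cell markers (4 of 4 tested higher, 26.0 to 38.7 against 0.898 to 1.25 CPM, Prss34 at 0) and myeloid markers (6 of 8 higher, 333 to 454 against 7.49 to 9.93 CPM) rose too. With CD8 identity scaling the myeloid markers Csf1r and Itgam were also called higher (edgeR adjusted p = 0.000805 and 0.00356). Listed genes with almost no spleen counts passed the low-count filter through the tumour libraries alone and so had to differ. Their calls are a description. B cell markers fell (5 of 5, 56.7 to 73.5 against 798 to 829.8 CPM), so the spleen libraries were not free of other cells' markers either. All 14 CD8 identity markers fell (4 rose and 5 fell when scaled by themselves). The 2 gamma delta markers present, Trdc and Sox13, summed to 3.66 to 4.05 against 8.39 to 9.97 CPM. Of these and of 2 plasmacytoid markers (118 to 159 against 147 to 155 CPM for the list), 1 each rose and 1 each fell. The 6 members other than Gzmb summed to 237, 216 and 596 CPM in these tumour libraries. The part of other cells in those sums, and in the tumour changes of the other genes and lists above, was not tested.

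Genes with a pattern like that of the run were sought across all 14 libraries. Likeness was measured as the root mean square difference of log2(CPM + 0.5), each gene centred on its own mean, over 13261 genes tested in both comparisons. Members and predicted genes (symbols of Gm with digits, or with Rik) were then left out of the ranking and of the median. Nearest to the sum of the 6 members without Gzmb were Spp1 (osteopontin, also among the myeloid markers, 1.32), Ifitm1 (1.62), AA467197 (1.65), Ifitm2 (1.68) and Myo10 (1.74), where the median gene stood at 3.98 and Gzmb itself at 1.84. Members within the sum stood at 0.40 (Gzmc), 1.16 (Gzmd), 1.57 (Gzme), 1.84 (Gzmf) and 2.18 (Gzmg). The sum was thus closest to Gzmc, and Spp1 was nearer to it than Gzme, Gzmf and Gzmg were. Nearest to Gzmb were Ifitm1 (0.40), Dmwd (0.49), Il2ra (0.56), Fam20a (0.57) and Ifitm2 (0.57), against a median of 3.00. Of the other members, Gzmc was the nearest to Gzmb, at 1.54. The libraries of a group share their source and experiment, so these distances describe 4 groups more than 14 independent points.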

How the data were processed

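Estimated counts for each gene symbol were deposited by the authors as 2 tables, with 8 culture and 6 sorted-cell libraries. Per the submitters' processing notes, STAR, Salmon and DESeq2 were used, with neither versions nor roles. The build, the annotation and whether strand was used: not given in the sources used here. Reads were pairs of 150 bases, per the labels' protocols. Of the deposited estimated counts, 9.16% and 9.15% were not whole (tolerance 1e-06), and all were rounded before testing.

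The 2 tables were fitted separately with the quasi-likelihood test of edgeR 4.0.16 under R 4.3.3 (robust, TMM scaling, genes kept by filterByExpr), and p-values were adjusted by Benjamini-Hochberg over all tested genes at a threshold of 0.05. CPM values use the TMM-scaled library size. The chi-square of counts per degree of freedom, computed without a test, was above the level of sampling noise for every pair of replicates. It was 3.07 to 7.63 between vehicle, 2.30 to 3.71 between spleen and 7.59 to 19.7 between tumour libraries. Between ND-646 libraries it was 5.35 for libraries 1 and 4 and 3.83 for 2 and 3, against 7.86 to 12.2 for the other pairs. Transcript lengths, coding identity and 31-base windows came from GENCODE M21 (53292 of the 55291 symbols matched) and promoters from RefSeq, with an entry for 7 of 7 members. The fit was tested on simulated data.

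The members, the 6 gene lists and the 8 marker lists were chosen with earlier results of these data known. Named genes were all members, 17 fixed genes, those among the 3 called genes of smallest p-value per list, and the 5 genes nearest to the run and to Gzmb. Gzmk, Gzmm, Ncr1, Mcpt2, Cbln3, Klf2, Tcf4, Csf1r, Itgam and markers at 0 were named after their values were seen. Alternatives were DESeq2 1.42.0, no filter, the replicate number as a block, CD8 identity scaling and leaving out each library; for the sums, also plain totals, unrounded counts, per kb of transcript and without Gzmb.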

Additional observations from a re-analysis of the deposited data

Results flagged for a closer look

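With 4 libraries in each culture group, 32 sets of 4 values were examined for a library far from the others, and chance alone picks out about 1 in 20 such sets. One value stood out. Gzmd made up 0.352% of the summed granzyme counts in ND-646 library 2, against 0.273 to 0.281% in the other 3 ND-646 libraries. The gap to the nearest of them was 0.902 of the group's whole range, on 246 Gzmd counts in that library and 158 to 189 in the others.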

How the results depend on the processing

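Gzmb was called higher in tumours in the main analysis and in all 10 alternatives, with the highest adjusted p at 0.00361. The count of members called higher there was 6 throughout, which is no sign of stability, since the other 5 passed the low-count filter through the tumour libraries alone. The counts of called genes, 8028 and 12602, ranged from 7424 to 8848 with ND-646 and from 12076 to 14249 in tumours, and CD8 identity scaling moved the share of calls that were higher from 52.9% to 75.0% and from 52.0% to 83.7%. The log2 ratio of the 7 summed granzymes with ND-646, -1.35, became -1.20 with CD8 identity scaling, -1.56 per kb of transcript and -4.75 without Gzmb, and ran from -1.37 to -1.31 when each library was left out. In tumours it was 6.16, became 7.06 with CD8 identity scaling and 10.24 without Gzmb, and ran from 5.60 to 6.63 when each library was left out. The shift without Gzmb follows from its removal from the sum. With CD8 identity scaling the median of all genes moved as well, by 0.15 with ND-646 and 0.90 in tumours. Per kb, Gzmb counts for less, as its transcript has 1.436 kb against 0.894 to 0.964 kb for the other members. The cause of the spread when libraries were left out was not tested. Gzmb's share of the counts became 58.5% per kb in vehicle, 95.4% in ND-646, 97.0% in spleen and 57.2% in tumour libraries.

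Fold changes of Gzmc to Gzmg in tumours rest on 0 to 13 spleen counts, so their sizes are loose: the log2 difference of Gzmd was 11.73 without spleen library 1, and that of Gzmg 7.91 without tumour library 2. With the replicate number as a block, 7864 and 12492 genes were called and Gzma passed the threshold in tumours (adjusted p = 0.0045). Same-numbered libraries correlated at -0.14 to 0.06 in the cultures and at -0.03 to -0.02 in the sorted cells after group means were removed, so the numbers were not taken to pair the samples.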
